A study of Homo sapiens with 5 samples.

Results

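The genes described here encode the chaperones that fold proteins in the cytosol and the mitochondria, with their helper proteins and the heat shock transcription factors. They were taken by name and by a protein-coding category from the deposited table: HSP90A, HSPA, HSPB, HSPD1, HSPE1, HSPH1 and DNAJ genes, BAG1 to BAG5, the CCT genes, HSF1 and HSF2, without the endoplasmic reticulum genes HSPA5, HSP90B1, DNAJC3, DNAJB9 and DNAJB11. This gave 84 of the 18568 gene rows analysed. The shares given below as background, for all tested genes or for all rows, cover these rows only. So do the adjusted p-values of the fits run here. The rows may not be the whole genome, because no further symbol listed near the end and beginning after H was tested. The name rule is wider than the 2 compartments, because DNAJC10, DNAJC1 and HSPA13 are known as endoplasmic reticulum proteins, and HSPB11 (a part of intraflagellar transport) and HSPBAP1 carry HSPB in their symbols without being small heat shock proteins.

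RNA was sequenced from IMR90, fibroblasts from normal human lung. All cells carried a retroviral RASV12, a constantly active RAS that drives fibroblasts into senescence, and had been selected with puromycin at 1.5 ug/ml for 3 days. They were seeded on day 10 after infection and transfected 24 hours later with an antagomir, an antisense oligonucleotide that blocks a microRNA. The 2 control libraries (lettered B and C in the deposited table) received a control antagomir, and the 3 others (A, B and C) an antagomir against miR-146a, and values per library follow this order. All groups share RASV12, so no library shows the chaperone genes without it. Whether separate cultures stand behind the libraries is not stated, and the p-values therefore reflect the library-to-library spread alone, part or all of which may be technical.

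The rows analysed held 8430859 to 9283950 reads per library, and these sums cover part of each library. The libraries lettered C stood apart from the others: in a principal component analysis 53.4% of the variance lay on an axis with both C libraries at one end, and 29.3% on an axis that parted the antagomirs. The letter has no meaning in the labels. Of 8 fibroblast markers all had rows, and their summed normalized reads ran from 172946 to 243487 in controls and from 193310 to 226867 with anti-miR-146a. The sum over 5 epithelial markers with a row was 53.6 to 81.2, most of it CLDN4 (43.5 to 70.3). CDH1 was at no more than 1 read in any library. Over 5 endothelial markers the sum was 60.1 to 111. Over 4 leukocyte markers it was 24.3 to 36.3, most of it CD14 (15.2 to 17.2) and CSF1R (8.40 to 19.1), with CD3E at 0 in every library.

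HSP70 proteins bind unfolded stretches of other proteins in cycles driven by ATP. J-domain proteins (DNAJ, also called HSP40) bring clients and start ATP hydrolysis, and nucleotide exchange factors such as the BAG proteins and HSP110 release the client. HSP90 acts later on kinases and receptors, among them RAF kinases downstream of RAS, the CCT ring folds actin and tubulin, and HSPA9, HSPD1 and HSPE1 do this work in the mitochondrial matrix. The heat shock factor HSF1 switches many of these genes on through heat shock elements, inverted repeats of GAA and TTC, in their promoters.

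The blocked microRNA and the sites that could pair with it are shown first, because the antagomir was aimed at this microRNA. The mature microRNA (chr5:160485372-160485393, + strand, RefSeq, GRCh38.p14) is printed with its seed, bases 2 to 8, in capitals.
hsa-miR-146a-5p: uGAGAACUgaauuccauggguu
Of the 84 genes, 14 held a seed match in the longest annotated 3′ UTR (GENCODE 29, GRCh38), and 3 of these were 8mers (AGTTCTCA). Among tested genes the share was 18.9% of 74 chaperone genes against 20.6% of 5112 protein-coding genes. The 8mer holders HSPA1A, DNAJC15 and DNAJC16, and 3 genes with a 7-base match (GTTCTCA), picked after their values were seen because they were among the lowest with anti-miR-146a, are shown with the match in capitals.
HSPA1A (chr6:31817742-31817765, + strand): tttctgtttgtcAGTTCTCAattt
DNAJC15 (chr13:43108578-43108601, + strand): ctgtagtttaggAGTTCTCAacct
DNAJC16 (chr1:15568803-15568826, + strand): gttctgcatgtgAGTTCTCAagaa
BAG1 (chr9:33255072-33255094, - strand): actctcacactgGTTCTCAatga
BAG2 (chr6:57185773-57185795, + strand): tgttttcttcagGTTCTCAagta
DNAJB14 (chr4:99896252-99896274, - strand): ataaaaaggtctGTTCTCActgt
A match is a description of the letters and not a shown site of action. The 14 genes with a match had a median log2 fold change of −0.15 with anti-miR-146a and the 60 tested genes without one a median of −0.13, and 11 of the 14 and 42 of the 60 lay below 0.

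The promoters of a few chaperone genes carry the full heat shock element. The motif GAANNTTCNNGAA, or its reverse complement TTCNNGAANNTTC, was searched on both strands in the window from 250 bases before to 50 bases after each start in RefSeq (GRCh38.p14). Of the 84 genes 73 were matched to that table, and 7 of the 73 (9.59%) held the motif, against 0.608% of the 27305 genes in the table. These were DNAJA1, DNAJB6, HSP90AA1, HSP90AB1, HSPA6, HSPA8 and HSPD1, where the motif copies of HSPD1 overlap each other. The windows of the 3 most abundant chaperone genes and of DNAJB6 are printed, with the motif in capitals, because HSP90AA1 and DNAJB6 passed with the C term below while HSP90AB1 and HSPA8 did not.
HSP90AA1 (chr14:102086995-102087294, - strand): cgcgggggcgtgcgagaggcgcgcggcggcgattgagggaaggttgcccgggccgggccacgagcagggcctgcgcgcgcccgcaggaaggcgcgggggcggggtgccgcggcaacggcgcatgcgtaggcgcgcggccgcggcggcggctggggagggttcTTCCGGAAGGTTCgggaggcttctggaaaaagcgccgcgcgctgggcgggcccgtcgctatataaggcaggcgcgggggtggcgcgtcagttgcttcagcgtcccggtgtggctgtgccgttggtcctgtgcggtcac
HSP90AB1 (chr6:44247693-44247992, + strand): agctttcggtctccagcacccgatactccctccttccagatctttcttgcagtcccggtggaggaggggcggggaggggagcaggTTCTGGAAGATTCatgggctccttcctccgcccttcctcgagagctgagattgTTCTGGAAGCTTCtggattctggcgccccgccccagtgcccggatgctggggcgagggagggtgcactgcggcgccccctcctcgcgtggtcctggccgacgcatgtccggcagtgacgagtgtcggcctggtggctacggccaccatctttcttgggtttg
HSPA8 (chr11:123062087-123062386, - strand): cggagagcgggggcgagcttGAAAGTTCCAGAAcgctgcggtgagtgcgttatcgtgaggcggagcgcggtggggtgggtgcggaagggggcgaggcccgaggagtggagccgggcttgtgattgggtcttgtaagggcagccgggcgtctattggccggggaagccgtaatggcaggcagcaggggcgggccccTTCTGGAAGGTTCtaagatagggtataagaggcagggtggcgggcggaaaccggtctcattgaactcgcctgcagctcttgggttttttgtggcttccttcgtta
DNAJB6 (chr7:157336754-157337053, + strand): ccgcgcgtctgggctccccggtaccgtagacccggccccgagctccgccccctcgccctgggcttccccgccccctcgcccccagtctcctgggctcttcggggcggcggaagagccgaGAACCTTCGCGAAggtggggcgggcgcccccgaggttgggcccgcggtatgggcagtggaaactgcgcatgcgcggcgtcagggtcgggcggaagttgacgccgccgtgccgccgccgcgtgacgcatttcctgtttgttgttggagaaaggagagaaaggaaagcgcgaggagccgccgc
All 7 genes with the motif had a fold change below 0 (median −0.17), as had 40 of the 59 tested genes with a window and no motif (median −0.11). Not all of the 7 were clearly below 0. HSPA6 averaged 32.0 normalized reads, with a log2 fold change of −0.18 (SE 0.28) and a difference of 0.18 between the B libraries. DNAJA1 was at −0.0073 with control B left out. No match says only that these letters are not in this window.

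Of the 84 genes, 74 passed the filter of at least 10 normalized reads in at least 2 libraries. The other 10 never exceeded 13.4 normalized reads in any library: DNAJB7, DNAJB8, DNAJB13, DNAJC5B, DNAJC5G, HSPA12B, HSPB2, HSPB3 and HSPB9 stayed below 10 in all 5, and DNAJC12 had 13.4 and 7.46 under the control antagomir against 7.55, 6.39 and 8.09 under anti-miR-146a. Tested genes ranged in mean from 18.4 (HSPB7) to 36163 normalized reads (HSPA8). Per kilobase of annotated exon, the highest mean levels were those of HSP90AB1 at 8177 normalized reads, HSPA8 at 7458, HSP90AA1 at 4832 and DNAJA1 at 2514. HSP90AB1, HSPA8 and HSP90AA1 together held 36.2% to 40.6% of the normalized reads of the 84 genes in each library.

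The chaperone genes as a group lay slightly lower with anti-miR-146a, but no single gene passed the test with the antagomir as its only term. Over the 84 genes the normalized reads summed to 249186 and 238926 under the control antagomir (B, C) and to 205445, 207780 and 221336 under anti-miR-146a (A, B, C), so each of the 3 sums was below both controls. In these bulk libraries fewer cells of a type and less RNA per cell cannot be told apart. Of the 74 tested genes 53 had a log2 fold change below 0 and 21 above, with a median of −0.13, where 49.1% of all 6317 tested genes were below 0 and their median was 0.0046 (protein-coding genes −0.0086). In limma on log2(value + 1), 0 of 74 genes passed an adjusted p (Benjamini-Hochberg over all genes) of 0.05, against a background of 0% of all genes. At an unadjusted p under 0.05 there were 9 lower genes (12.2%, background 4.62%) and 2 higher (2.70%, background 6.7%), 11 in all (background 11.3%). On recovered reads edgeR and DESeq2 also passed 0 of the 74, where edgeR passed 0% and DESeq2 0.776% of all genes. At an unadjusted p under 0.05 edgeR had 11 of the 74 (background 11.2%) and DESeq2 12 (background 9.62%). With control B left out the median was −0.0428 and 43 of 74 genes were below 0 (background 50.4%), and leaving out treated library C gave −0.0931.

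**Figure D1:**
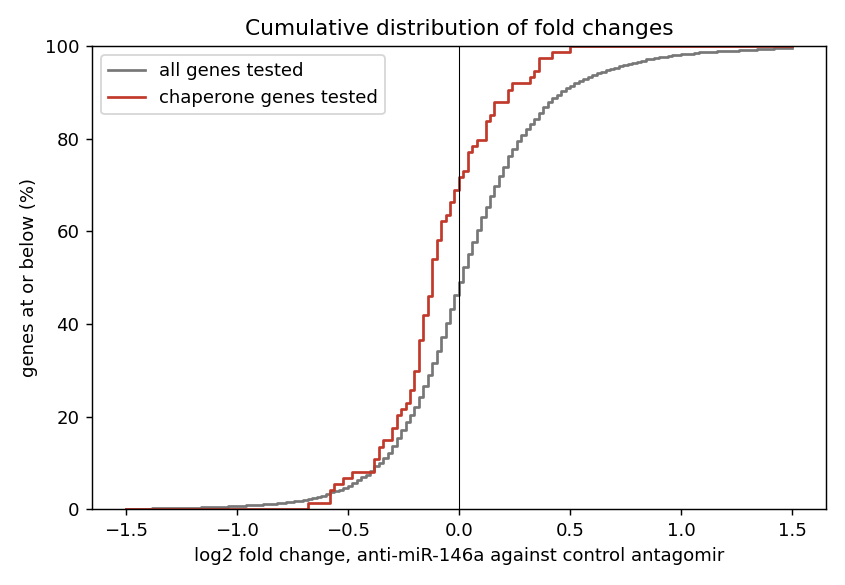
Cumulative share of genes (y axis, percent) at or below each log2 fold change of anti-miR-146a against control antagomir (x axis), for the 74 tested chaperone genes and all 6317 tested genes. The chaperone curve lies to the left through its middle, crossing 0 at 71.6% against 49.1%.

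In 25 of the 74 genes (33.8%) every anti-miR-146a library lay below both controls, where 13.5% of all tested genes did, and in 7 (9.46%) every one lay above both, where 16.5% did. The libraries of letter B and of letter C give comparisons that share no library. Library B was below control B in 51 of the 74 genes (background 47.3%), with a median log2 difference of −0.17 against 0.0251 over all genes. Library C was below control C in 51 genes too (background 47.5%), with a median of −0.0517 against 0.0135. In 40 genes (54.1%) both differences were below 0, which holds for 30.4% of all tested genes.

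**Figure D2:**
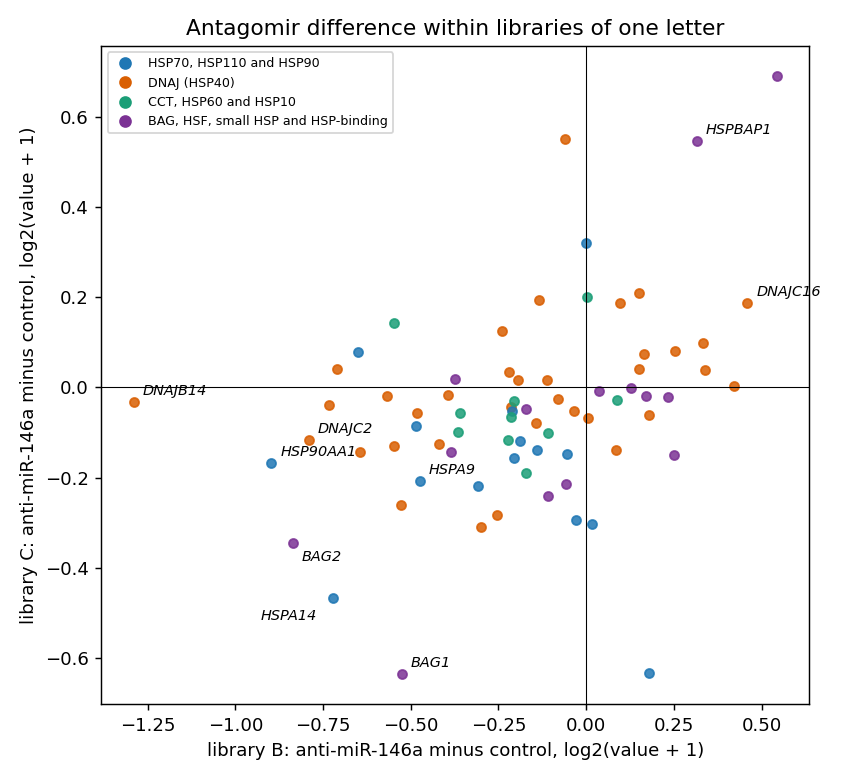
Each point is 1 of the 74 tested chaperone genes, placed by the log2 difference of anti-miR-146a minus control in the libraries lettered B (x axis) and in those lettered C (y axis). Below 0 on both axes lie 40 genes, and DNAJB14 (−1.29 and −0.033) and HSP90AA1 (−0.90 and −0.17) lie far to the left.

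Since the C libraries stood apart, the same test was also run with a term for them, and then 14 of the 74 genes passed (18.9%, where 15.4% of all tested genes did). Of these 12 were lower with anti-miR-146a (16.2%, where 6.79% of all genes passed as lower) and 2 were higher (2.70%, where 8.64% passed as higher). The lower genes were DNAJB14, HSPA14, BAG2, HSP90AA1, BAG1, DNAJC2, HSPA9, DNAJC13, DNAJB2, HSPA1A, DNAJC21 and DNAJB6, and the higher ones HSPBAP1 and DNAJC16. The groups did not overlap in 12 of the 14 (85.7%), where this held for 74.7% of the 975 genes that passed. The sign was the same in the B and in the C libraries in all 14, as in 99.2% of the 975, and the difference was larger in the B libraries in 10 (71.4%, against 72.9%). The overlap and the sign largely follow from passing this test and add no separate evidence. Without both C libraries, which leaves 1 control whose spread is assumed to be that of the other group, 28 genes passed (background 25.8%), 26 as lower (background 13.3%) and 2 as higher (background 12.5%). Of the 14 genes above, 13 were among them. Of 72 chaperone genes with an adjusted p in the authors' deposited table, 3 are under 0.05 (4.17%, where 2.57% of all rows with a value are), all with a fold change below 1 (0.876% of all such rows, and 1.7% are above 1). In the authors' deposited table these are HSPA14 with a fold change of 0.656 (adjusted p 0.00845), BAG2 with 0.668 (adjusted p 0.0125) and DNAJB6 with 0.821 (adjusted p 0.0402).

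**Figure D3:**
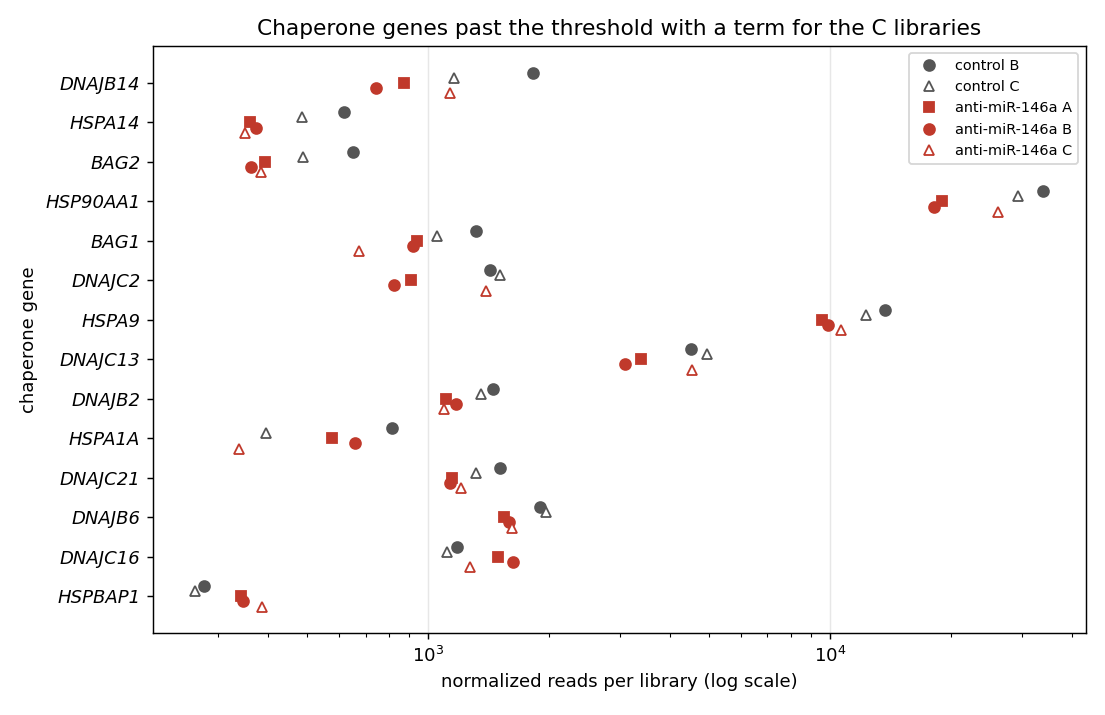
Normalized reads (x axis, log scale) of the 14 chaperone genes that passed with the C term, in each of the 5 libraries, ordered by fold change. Grey marks are controls and red marks anti-miR-146a, with open triangles for the C libraries. In DNAJC13 and HSPA1A the groups overlap, and in HSPA1A both C libraries lie below the other 3.

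The HSP90 genes HSP90AA1 and HSP90AB1 encode the stress-responsive and the constitutive cytosolic forms of HSP90. HSP90AA1 (chromosome 14, 102080738 to 102139699, GRCh38, minus strand) had 33948 (B) and 29413 (C) normalized reads as control, then 19049 (A), 18213 (B) and 26175 (C) when miR-146a was blocked. Every anti-miR-146a library was below both controls, and library C was the nearest to them. The means were 31680.5 ± 3207 (SD, n = 2) and 21146 ± 4375 (SD, n = 3), a ratio of 0.667. The log2 fold change was −0.60 (SE 0.19, limma adjusted p 0.373), and −0.57 (SE 0.12, adjusted p 0.00647) with the C term. The difference was −0.90 between the B libraries and −0.17 between the C libraries, and whether these differ was not tested. Of the chaperone reads HSP90AA1 made up 13.6% and 12.3% under the control antagomir against 9.27%, 8.77% and 11.8% under anti-miR-146a. HSP90AB1 had 24868 and 27352 under the control antagomir against 22184, 22575 and 24854 under anti-miR-146a, also without overlap but with a smaller gap. Its log2 fold change was −0.17 (SE 0.12), and it did not pass with the C term (adjusted p 0.216). The longest annotated coding sequences (2565 bases for HSP90AA1, 2175 for HSP90AB1) shared 1652 identical bases when aligned. This is 64.4% of the aligned positions with gaps counted, so the difference in length lowers the share.

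Among HSP70 genes all 10 tested of 11 had a fold change below 0, with a median of −0.17, and 3 passed as lower with the C term (background 6.79%). The direction of this count rests on control B: with it left out 5 of the 10 were below 0 and 5 above, with a median of −0.0499. HSPA14 (chromosome 10, 14838164 to 14871741, GRCh38, plus strand), an HSP70 that works with the ribosome-bound chaperone complex, had 618 and 486 normalized reads under the control antagomir against 361, 374 and 351 under anti-miR-146a. The 3 anti-miR-146a values lay close together and below both controls. The log2 fold change was −0.60 (SE 0.14, limma adjusted p 0.341), and −0.63 (SE 0.11, adjusted p 0.00172) with the C term. In the annotation 17.4% of its exon bases lie in another same-strand gene that bears the same symbol, so reads could be split between them. HSPA9 (chromosome 5, 138554882 to 138575444, GRCh38, minus strand), the mitochondrial HSP70 mortalin, had 13739.8 and 12311 under the control antagomir against 9570.5, 9889 and 10652 under anti-miR-146a, a ratio of 0.771 with no overlap. It passed with the C term at a log2 fold change of −0.37 (SE 0.08, limma adjusted p 0.00936). HSPA8, the constitutive HSP70 of the cytosol, had 36279 and 40222 under the control antagomir against 33074, 34933 and 36306 under anti-miR-146a. Treated library C of HSPA8 was just above control B, so the groups met, and it did not pass (log2 fold change −0.14, SE 0.13).

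The heat-inducible HSP70 genes HSPA1A and HSPA1B were low in both C libraries, whichever antagomir the cells had received. HSPA1A had 816 (B) and 396 (C) normalized reads as control, then 579 (A), 659 (B) and 339.9 (C) when miR-146a was blocked. HSPA1B had 785 and 292, then 585, 560.4 and 275, so in both genes the 2 C libraries were the lowest of the 5. For HSPA1A control C was lower than control B by a log2 difference of −1.04, and anti-miR-146a C was lower than A and B by −0.86. For HSPA1B the control difference was −1.42, and the treated one also exceeded 1 in size. With the C term HSPA1A passed as lower with anti-miR-146a (log2 fold change −0.32, SE 0.10, limma adjusted p 0.0453), while HSPA1B did not (−0.30, SE 0.11, adjusted p 0.0783). Their coding sequences are 99.8% identical, so the split of reads between them is uncertain. In addition, 36.5% of the exon bases of HSPA1B are shared with AL671762.1 on the same strand. HSPA1A holds the 8mer match to miR-146a shown above. Its fold change was below 0 with the antagomir alone as a term (−0.17, SE 0.39), and it was 0.3548 with control B left out and 0.1198 with treated library C left out.

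Members of the HSP110 family, which exchange nucleotide on HSP70, differed in their pattern. HSPH1 had 11778 (B) and 7395 (C) normalized reads as control, then 9873 (A), 10214 (B) and 6632 (C) when miR-146a was blocked. Like HSPA1A it was low in both C libraries, by log2 differences of −0.67 and −0.60, and the antagomir groups overlapped. HSPA4 had 9461 and 9393 under the control antagomir against 8268, 8173 and 9064 under anti-miR-146a, without overlap and without a call (log2 fold change −0.15, SE 0.10).

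Of 74 tested genes 16 (21.6%) had both C libraries below the other 3, where 20.3% of all tested genes did, and 8 (10.8%) had both above, where 24.3% did. Differences beyond 0.5 on the log2 scale in both antagomir groups were found as lower in the C libraries for 6 chaperone genes, HSPA1A, HSPA1B, HSPA1L, HSPH1, DNAJA4 and DNAJC22 (8.11%), where 5.87% of all tested genes met the same limit. As higher in the C libraries the limit was met by 1 chaperone gene, DNAJC6 (1.35%), and by 8.71% of all tested genes. HSPA1A and HSPA1B are not separate cases here, because the split of reads between them is uncertain. DNAJC22 and DNAJC6 were low, at 15.9 to 37.8 and 18.3 to 41.5 normalized reads. DNAJA4, a cytosolic type A J-domain protein, had 82.1 and 43.8 under the control antagomir against 66.1, 56.6 and 36.4 under anti-miR-146a. HSPA1L, next to HSPA1A and HSPA1B on chromosome 6 and mainly known from testis, had 114 and 78.4, then 88.7, 111 and 63.7. Of other heat-inducible genes, DNAJB1 had log2 differences of 0.19 and 0.0078, BAG3 0.0498 and −0.0196, and HSPB1 −0.0687 and −0.12. In HSP90AA1 they had opposite signs, −0.21 between the controls and 0.49 with anti-miR-146a. HSF2 was lower in the C libraries by −0.46 and −0.47. These genes were picked after their values were seen, and no test was made of the letter.

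**Figure D4:**
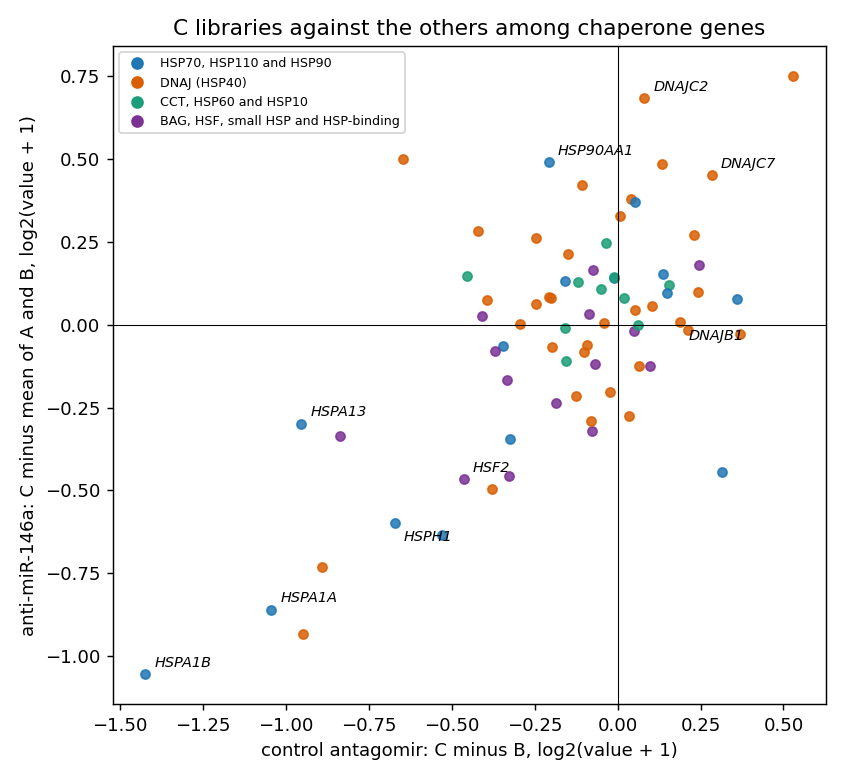
Each point is 1 of the 74 tested chaperone genes, placed by the log2 difference of control C minus control B (x axis) and of anti-miR-146a C minus the mean of A and B (y axis). HSPA1A, HSPA1B and HSPH1 lie in the lower left, below −0.5 on both axes.

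J-domain proteins were the largest group, and their fold changes lay on both sides of 0. Of 7 tested DNAJB genes 5 were below 0 (background 49.1%) and 3 passed as lower with the C term (background 6.79%). DNAJB14 (chromosome 4, 99896248 to 99946726, GRCh38, minus strand), an endoplasmic reticulum membrane protein whose J domain faces the cytosol, had 1823 (B) and 1164 (C) normalized reads as control, then 870.4 (A), 745 (B) and 1138 (C) when miR-146a was blocked. The groups did not overlap, but library C was only just below control C: the difference was −1.29 between the B libraries and −0.033 between the C libraries. Its log2 fold change was −0.69 (SE 0.17, limma adjusted p 0.0163) with the C term. DNAJB6, which keeps aggregation-prone proteins in solution, had 1897 and 1968 under the control antagomir against 1550.1, 1589 and 1617 under anti-miR-146a. For DNAJB6 the libraries of each antagomir lay close together, and the differences were −0.26 between the B and −0.28 between the C libraries. DNAJB2, a J-domain protein that hands clients to the proteasome, had 1449 and 1359 under the control antagomir against 1113, 1176 and 1096 under anti-miR-146a (log2 fold change −0.33, SE 0.08, adjusted p 0.0172 with the C term). DNAJB1, the main stress-inducible J-domain partner of HSP70, had 3082 and 3511 under the control antagomir against 3212, 3489 and 3366 under anti-miR-146a, so the groups overlapped fully (log2 fold change 0.03, SE 0.11).

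All 4 DNAJA genes had a fold change below 0 and none passed, and with control B left out 1 was below 0 and 3 above. DNAJA1, the abundant farnesylated partner of HSPA8, had 7862 and 6637 under the control antagomir against 6268, 6755 and 6800.4 under anti-miR-146a. These overlapped. DNAJA2 had 3064 and 2669, then 2816, 2835 and 2699, with a log2 fold change of −0.0394 (SE 0.11).

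In the DNAJC group 14 of 24 tested genes were below 0 (background 49.1%) and 10 above, and with the C term 3 passed as lower (background 6.79%) and 1 as higher (background 8.64%). DNAJC2, which sits on the ribosome with HSPA14 and acts on nascent chains, had 1428 (B) and 1509 (C) as control, then 910.0 (A), 825 (B) and 1392 (C) when miR-146a was blocked. The treated library C was near the controls and A and B far below: the difference was −0.79 between the B libraries and −0.12 between the C libraries. With the C term the log2 fold change was −0.46 (SE 0.12, limma adjusted p 0.016). DNAJC13, an endosomal sorting protein, had 4521 and 4958 under the control antagomir against 3390.0, 3091 and 4529.6 under anti-miR-146a, so that treated library C lay just above control B (−0.33, SE 0.09, adjusted p 0.0237 with the C term). DNAJC21, a factor of ribosome assembly, had 1515 and 1317, then 1151, 1133 and 1208 (−0.29, SE 0.09, adjusted p 0.0434 with the C term). DNAJC16, a J-domain protein of the endoplasmic reticulum membrane, was the one that passed as higher, with 1184 and 1119 under the control antagomir against 1494, 1627 and 1274 under anti-miR-146a. Every treated library was above both controls (0.31, SE 0.09, adjusted p 0.0299 with the C term), and its 3′ UTR holds an 8mer match. DNAJC15, the third gene with an 8mer, had 761 and 686 under the control antagomir against 647, 643 and 748 under anti-miR-146a, which overlapped. DNAJC5, a vesicle protein, had 3202 and 3758, then 3004, 2901 and 3558, with no call.

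**Figure D5:**
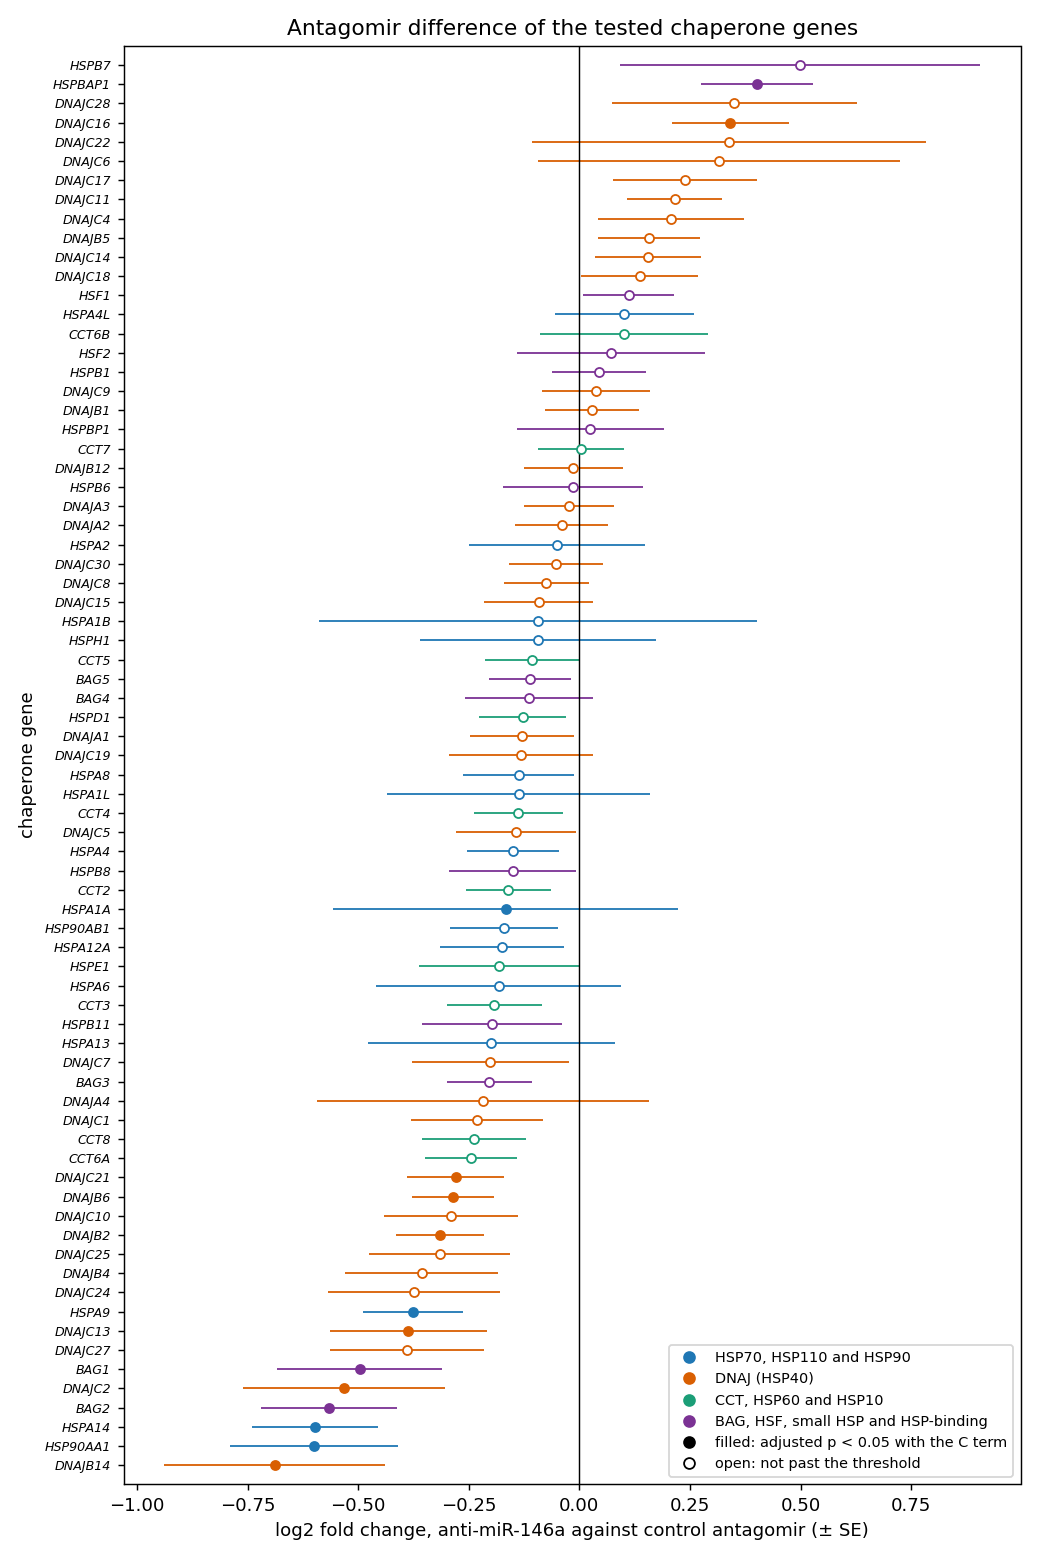
Log2 fold change of anti-miR-146a against control antagomir (x axis) with its standard error as a bar, for each of the 74 tested chaperone genes (y axis), from limma with the antagomir as the only term. Filled points passed an adjusted p of 0.05 with the C term, 12 of them below 0 and 2 above.

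The BAG genes encode nucleotide exchange factors that bind HSP70. All 5 had a fold change below 0 (4 with control B left out). In 4 every anti-miR-146a library was below both controls (background 13.5%), and 2 passed as lower with the C term (background 6.79%). BAG2 (chromosome 6, 57172326 to 57189833, GRCh38, plus strand), which blocks the ubiquitin ligase partner of HSP70, had 651 and 489.8 normalized reads under the control antagomir against 394, 364 and 385 under anti-miR-146a, a ratio of 0.668. Its log2 fold change was −0.59 (SE 0.11, limma adjusted p 0.00434) with the C term. Of its exon bases 44.2% lie opposite exons of ZNF451-AS1 or RAB23 on the other strand, and no source used here says whether strand was counted, so part of its reads may belong to them. BAG1 (chromosome 9, 33247820 to 33264720, GRCh38, minus strand), which links HSP70 to the proteasome, had 1319 and 1051 under the control antagomir against 939, 916 and 676 under anti-miR-146a. The differences were −0.53 between the B and −0.64 between the C libraries, and the log2 fold change with the C term was −0.56 (SE 0.09, adjusted p 9.57e-04). BAG3, a heat-inducible factor that steers clients to autophagy, had 2198 and 2275, then 1866, 2039.9 and 1925, a narrow gap that did not pass (adjusted p 0.107 with the C term). BAG5 had 2195 and 2066, then 1965, 1948 and 1999.8.

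The 8 CCT genes are named for the cytosolic chaperonin ring that folds actin and tubulin. They were taken by symbol and need not be the whole ring. Of the 8, 6 were below 0 and 2 above, none passed with or without the C term, and the range was −0.24 to 0.10. The upper end was CCT6B, with 60.1 and 59.7 normalized reads under the control antagomir against 64.2, 60.2 and 68.8 under anti-miR-146a. In 5 of the 8 CCT genes every anti-miR-146a library was below both controls (background 13.5%). CCT2 had 4858 and 4928 under the control antagomir against 4439.7, 4161 and 4544 under anti-miR-146a, and CCT3 had 5463 and 6088, then 4972, 4847 and 5339. Neither gap passed the test (log2 fold changes −0.16, SE 0.10, and −0.19, SE 0.11). CCT5 had 6717 and 6037, then 5905, 6232 and 5627, which overlapped, and 30.1% of its exon bases lie opposite another gene. The mitochondrial chaperonin HSPD1 (HSP60) had 6810.2 and 6578 under the control antagomir against 6041, 5905 and 6439 under anti-miR-146a, without overlap or a call (log2 fold change −0.13, SE 0.10). Its partner HSPE1 (HSP10), transcribed from the same stretch of chromosome 2 in the other direction, had 334 and 243, then 259, 228 and 269. Those overlapped, and 9.71% of the exon bases of HSPE1 are shared with the readthrough gene HSPE1-MOB4 and 14.2% lie opposite HSPD1.

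Small heat shock proteins hold unfolded proteins without using ATP, and 4 of 7 were tested with none passing. HSPB1 (HSP27) had 2612 and 2491 under the control antagomir against 2564, 2855 and 2490.3 under anti-miR-146a, a complete overlap. HSPB8, which acts with BAG3, had 744 and 653, then 615, 715 and 562, with a log2 fold change of −0.15 (SE 0.14). HSPB11 had 386 and 306, then 329, 295 and 277. Of the proteins named for binding to heat shock proteins, HSPBAP1 passed as higher with the C term, with 278 and 264 under the control antagomir against 344, 346 and 386 under anti-miR-146a. Its log2 fold change was 0.41 (SE 0.11, limma adjusted p 0.0214), though it did not pass without both C libraries (adjusted p 0.0829). HSPBP1, an exchange factor of HSP70, had 471 and 446, then 449, 560.4 and 402, which overlapped.

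The transcription factors HSF1 and HSF2 did not pass. HSF1, the main activator of heat shock genes, had 1632 and 1746 normalized reads under the control antagomir against 1839, 1918 and 1721 under anti-miR-146a, with a log2 fold change of 0.11 (SE 0.10). HSF2 had 557 (B) and 404 (C) as control, then 539 (A), 572 (B) and 402 (C) when miR-146a was blocked. Both C libraries of HSF2 were below the other 3, under either antagomir. The mRNA level of HSF1 does not show its activity, which is set by the protein.

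Of 64 further gene symbols listed around the chaperones, some of them second symbols of 1 gene, 32 had a row in the table as used here. Of these 30 were tested. The tested ones were mostly co-chaperones and mitochondrial proteases with a few others (among them the pseudogene AFG3L1P and the transcription factor HSF4). All 30 have symbols that begin with A to H, and no listed symbol later in the alphabet was tested. No prefoldin was therefore among them, which says nothing about prefoldin levels. Of these 30 genes 18 were below 0 and 12 above, with a median log2 fold change of −0.0331, 0 passed in limma (2 at an unadjusted p under 0.05, background 11.3%), and with the C term 1 passed as lower (background 6.79%) and 0 as higher (background 8.64%). That one was EEF1E1, a tRNA synthetase complex factor, with 121 and 101 normalized reads under the control antagomir against 61.4, 77.6 and 81.9 under anti-miR-146a. Its log2 fold change with the C term was −0.59 (SE 0.18, limma adjusted p 0.0411). Among helpers of HSP90 in the list were AHSA1, which speeds its ATPase, with 2422 and 2134 under the control antagomir against 2079.7, 2285 and 1948 under anti-miR-146a, and CDC37, which loads kinases, with 3548 and 4708, then 3167, 3488 and 4507. Both overlapped between the groups, and CDC37 was high in both C libraries. GRPEL1, the exchange factor of HSPA9 in mitochondria, had 2079.8 and 2051, then 1782, 1856 and 1873, without overlap (log2 fold change −0.17, SE 0.09, adjusted p 0.172 with the C term).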

How the data were processed

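Total RNA of IMR90 fibroblasts was depleted of ribosomal RNA and sequenced, per the labels' protocols. The submitters' processing notes name Trimmomatic 0.35, STAR 2.5.1b, DESeq2 1.22.2 and GRCh38. For the read counter, its strand setting and the annotation release, the sources used here give no name. The deposited table gives a signal per gene and library, which is a read count divided by a size factor by the authors (1.05 and 1.07 for the controls, 1.06, 1.10 and 0.989 for the others). The authors' deposited fold change is a linear ratio. A p-value and its adjusted form, both from the authors, complete each row. All values (100%) were whole multiples of 1 step per library within 1e-06, so reads were recovered. Column names of the deposited table show the group of each library and not which GEO sample it is.

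Because the values are normalized, the main test was limma 3.58.1 (R 4.3.3, trend) on log2(value + 1), which understates the change of low genes, over 6317 genes with at least 10 normalized reads in at least 2 libraries. Adjusted p-values (Benjamini-Hochberg) are over all genes tested, with a threshold of 0.05. A further fit had a term for the libraries lettered C. edgeR 4.0.16, DESeq2 1.42.0 and limma voom on recovered reads, a TMM scaling, pseudocounts, filters, the letter as a block and left-out libraries were also tried. With edgeR 0 of 6317 genes passed and 710 had an unadjusted p under 0.05, voom gave 0 and 705, and DESeq2 passed 49. Only limma with the antagomir as the only term and limma with the C term were run on simulated counts. The simulation used the same dispersion for every gene, and no statement here rests on it.

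Deposited positions equalled those of GENCODE 29 for 75 of the 84 genes with the same versioned ID. The others were matched without the version. Exon lengths are unions over transcripts. The members and lists were chosen with earlier results of these data known. Named genes were a fixed set, the 2 most abundant tested per family, those with an unadjusted p under 0.05, and the 6 lowest and up to 6 highest past the threshold with the C term. Others are named as examples of a count. Protein sequences were not analysed here.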

Additional observations from a re-analysis of the deposited data

How the results depend on the processing

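Of the 74 tested chaperone genes 0 passed with the antagomir as the only term, and this held for every pseudocount, filter, scaling, threshold (adjusted p of 0.10) and test tried, and without any 1 library (0 to 0). The count was 14 with the C term, 8 with the letter as a replicate block (10.1% of all genes passed there, and the 8 were among the 14) and 28 without both C libraries. Over all tested genes the counts were 975, 636 and 1568 in the same order, 49 with DESeq2, and 0 to 12 with 1 library left out (12 without anti-miR-146a C). With the block 6 of the 14 genes did not pass: HSPBAP1 (limma adjusted p 0.0504), DNAJC16 (0.0737), DNAJB2 (0.101), DNAJB6 (0.149), DNAJC21 (0.159) and HSPA1A (0.246). The letters are not stated to pair the libraries. Deviations from the group mean correlated at 0.505 between control B and anti-miR-146a B and at 0.661 between control C and anti-miR-146a C, but also at 0.532 between control B and anti-miR-146a A. The median log2 fold change of the chaperone genes ran from −0.1583 to −0.0428 with 1 library left out.

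Among the named genes the sign turned under the C term for HSF2 (−0.0066) and HSPBP1 (−0.0117), and without both C libraries for HSF2 (−0.0052). With 1 library left out the fold change ran from −0.1389 to 0.0601 for DNAJA2, −0.0661 to 0.122 for DNAJB1, −0.1608 to 0.3028 for HSF2, −0.6882 to 0.3548 for HSPA1A, −0.8051 to 0.6178 for HSPA1B, −0.0137 to 0.0849 for HSPB1, −0.1086 to 0.1313 for HSPBP1, −0.409 to 0.0457 for HSPE1 and −0.4295 to 0.2419 for HSPH1. The cause was not tested. In the other gene results by setting 519 kept sign and call, and 39 passed where the main test did not. The design has 2 controls against 3 libraries, and no detection limit was measured.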
